A study of Mus musculus with 2 samples.

Results

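The stefin A gene cluster of the mouse is a group of related genes for small cysteine protease inhibitors, and 7 of its genes were followed here: Stfa1, Stfa2, Stfa2l1, Stfa3, Cstdc4, Cstdc5 and Cstdc6. Their rows were taken by symbol from both deposited matrices, in each of which they made up 7 of 32285 genes. The genes were chosen from earlier results on the neutrophils kept at the high dose against the vehicle. The ratios of high dose to vehicle given below therefore describe what chose them and carry no test.

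Stefins are cytosolic cystatins. They sit as a wedge in the active site of papain-like cysteine proteases such as cathepsins B, H, L and S and so limit proteolysis that escapes from lysosomes. Humans carry the gene CSTA, while the mouse locus has expanded by duplication, and transcripts of several of its copies are known from maturing neutrophils of the bone marrow. The symbols Stfa mark genes long known as stefins, and the symbols Cstdc (cystatin domain containing) mark copies that were named from their sequence.

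Single-cell RNA was measured in 2 droplet libraries, with the tissue labels liver and spleen, from female BALB/cAnNCrl mice that carried liver metastases of 4T1 cells, a mouse mammary carcinoma line. Mice were 7 to 8 weeks old at purchase, tumor cells were seeded by hemisplenectomy, which leaves the mouse with a part of its spleen, and cells were taken 5 days after treatment with 2 mice pooled. CBL0137, a compound that binds DNA and traps the histone chaperone FACT on chromatin, was given by hepatic arterial infusion. Each library mixed 3 groups told apart by antibody hashtags, of which A0301 marked vehicle cells, A0305 the low dose and A0310 the high dose of CBL0137. All groups therefore shared the strain, the tumor and the surgery. How much CBL0137 either dose held is not stated in the sources used here. For the cells, the labels name leukocytes from a density gradient, while the methods name CD11b+ cells isolated with magnetic beads. T cell-like and B cell-like cells made up 27.0% and 14.4% of the assigned cells of the library labelled liver. Because a group was 1 pooled sample in each library, no difference between groups could be tested, and every interval below is an exact 95% interval that covers counting error only.

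The tissue labels and the markers of the libraries disagreed. Hepatocyte markers summed to 0.0728 CPM (UMIs, which are unique transcript counts, per 1000000 UMIs) with 4 of 6 genes at 0 in the library labelled liver, and to 70.9 CPM with 0 of 6 at 0 in the library labelled spleen. Markers of macrophages summed to 122 and 2363 CPM and those of endothelial cells to 72.9 and 471 CPM in the same order. Clusters of hepatocyte-like, endothelial-like and 4T1-like cells were named only in the library labelled spleen (164, 248 and 74 cells). By these markers it was the library labelled spleen that held cells of the liver. The libraries are therefore called liver-labelled and spleen-labelled throughout, which gives the label and not the tissue of origin. They held 9591 and 4830 barcodes with 79585807 and 35672251 UMIs, shared 15 barcodes, and gave 8435 and 2988 cells with a single hashtag call, of which 3103 and 822 were vehicle cells, 3194 and 1301 low dose cells and 2138 and 865 high dose cells. The 7 genes took 831318 of the UMIs in the liver-labelled library and 187930 in the spleen-labelled library.

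The 7 genes lay within 298.6 kb of mouse chromosome 16, at chr16:36156811-36455392 of GRCm38 (mm10), all protein coding in GENCODE release M21. In order along the chromosome, the forward strand held Stfa2l1 (ENSMUSG00000059657, chr16:36156811-36161953), Cstdc4 (ENSMUSG00000079597, chr16:36184212-36188111) and Stfa1 (ENSMUSG00000071562, chr16:36276951-36285373). The reverse strand then held Cstdc6 (ENSMUSG00000079594, chr16:36321665-36334332), Cstdc5 (ENSMUSG00000071561, chr16:36359382-36367748), Stfa2 (ENSMUSG00000022902, chr16:36403992-36408457) and Stfa3 (ENSMUSG00000054905, chr16:36450537-36455392). Csta3 and Csta2 lay between Cstdc4 and Stfa1, and Csta1 lay before Stfa2l1. The annotation names Cstdc4, Cstdc5 and Cstdc6 as Gm5483, BC100530 and BC117090.

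Promoters were read to set the sequences of the genes side by side. RefSeq promoters on GRCm38.p6 (250 bases before to 50 bases after the start) were held for 6 of the 7 genes, Cstdc6 being the exception. The longest stretch of letters common to all 6 had 13 bases. It was picked for being in all 6, so its presence in each is no finding. Each sequence below runs 5′ to 3′ on the strand of its gene from 120 bases before the RefSeq start through the first transcribed base, with the shared stretch in capitals.
Stfa2l1 (forward strand, chr16:36156691-36156811): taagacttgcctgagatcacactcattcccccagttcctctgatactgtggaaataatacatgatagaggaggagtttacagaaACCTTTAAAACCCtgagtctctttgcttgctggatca
Cstdc4 (forward strand, chr16:36184092-36184212): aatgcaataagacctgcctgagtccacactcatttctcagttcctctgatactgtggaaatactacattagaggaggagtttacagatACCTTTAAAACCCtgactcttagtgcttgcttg
Stfa1 (forward strand, chr16:36277028-36277148): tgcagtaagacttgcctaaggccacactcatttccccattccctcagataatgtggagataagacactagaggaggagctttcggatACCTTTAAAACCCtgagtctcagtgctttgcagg
Cstdc5 (reverse strand, chr16:36367570-36367690): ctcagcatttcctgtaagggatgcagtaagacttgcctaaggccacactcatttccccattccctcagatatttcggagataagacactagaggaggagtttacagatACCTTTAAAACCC
Stfa2 (reverse strand, chr16:36408363-36408483): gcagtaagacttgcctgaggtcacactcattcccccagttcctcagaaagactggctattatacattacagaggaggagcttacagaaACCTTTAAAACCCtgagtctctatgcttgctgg
Stfa3 (reverse strand, chr16:36455392-36455512): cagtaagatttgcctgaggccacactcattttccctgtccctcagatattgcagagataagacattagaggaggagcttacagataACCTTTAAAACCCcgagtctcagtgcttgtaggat

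The stretch ACCTTTAAAACCC began 32 to 36 bases before the start of 5 genes, where a TATA-like element is usual, and 12 bases before the annotated start of Cstdc5. Searched on both strands, it was found in 8 of 27025 promoters (0.0296%), the other 2 being those of Csta3 and Gm7260. Because it was picked as common to 6 related promoters, this count is no test of shared regulation. The shorter TTTAAAA inside it was found in 8.65% of all promoters. Of motifs that resemble sites of myeloid factors, the C/EBP-type pattern TTGCNNAA was found in 2 of 6 promoters (Stfa1 and Cstdc5) against 10.8% of all. The palindrome TTGCGCAA, a form of that pattern, was found in 0 of 6 against 0.185%, and the PU.1-type GAGGAAGT in 0 of 6 against 3.28%. These matches describe letters in a window and not sites of binding. Between pairs of genes the promoters were 67.1% to 90.5% identical (15 pairs), with Stfa2 and Stfa2l1 the closest.

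The coding parts had 312 bases in Stfa2, Stfa2l1 and Stfa3, 294 in Stfa1, Cstdc4 and Cstdc5, and 291 in Cstdc6. Identity over the 21 pairs ran from 73.4% to 98.0% with a median of 79.5%. Stfa1, Cstdc5 and Cstdc6 formed the closest trio (98.0% for Stfa1 and Cstdc5, 95.2% for Cstdc5 and Cstdc6, 93.5% for Stfa1 and Cstdc6), and Stfa2 and Stfa2l1 the closest pair outside it (96.5%). This likeness bears on the counts, since reads of near-identical copies can be lost or assigned to a relative. Of the 90-base windows in the last 400 bases of the transcript, 28.3% of those of Cstdc5 were also found in Cstdc6 or Stfa1, 16.4% of those of Cstdc6, 16.1% of those of Cstdc4 (in Csta2), 12.5% of those of Stfa1, 2.57% each of those of Stfa2 and Stfa2l1, and 0% of those of Stfa3. Levels of Stfa1, Cstdc5 and Cstdc6 are therefore uncertain against each other. Their sum does not depend on the split between them. A UMI counts a captured transcript and not its length, so levels of the members are set side by side without a length correction.

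Stefin A transcripts were concentrated in granulocytes. Cells were clustered without the 7 genes and the family genes beside them among the variable features, and clusters were named from marker genes. Neutrophil-like cells were 34.0% of the assigned cells of the liver-labelled library (2866 cells) and held 81.9% of its stefin A UMIs, and granulocyte progenitor-like cells (443 cells) held a further 17.2%. In the spleen-labelled library neutrophil-like cells (1140 cells, 38.2%) held 98.1%. Over all groups the summed level was 24307 CPM (24246 to 24368) in neutrophil-like cells, 8611 CPM (8564 to 8658) in progenitor-like cells and 602 CPM (582 to 622) in monocyte-like cells of the liver-labelled library. The classes of the same names in the spleen-labelled library had 15781 CPM (15700 to 15862), 159 CPM (147 to 171) and 190 CPM (172 to 209). Cells with Cebpe, Fcnb and Camp among the leading genes were named progenitor-like in the first library (cluster 9, 328 cells). In the second they were named neutrophil-like (cluster 2, 261 cells). The progenitor-like levels and shares of the 2 libraries are therefore not of like cells.

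**Figure D1:**
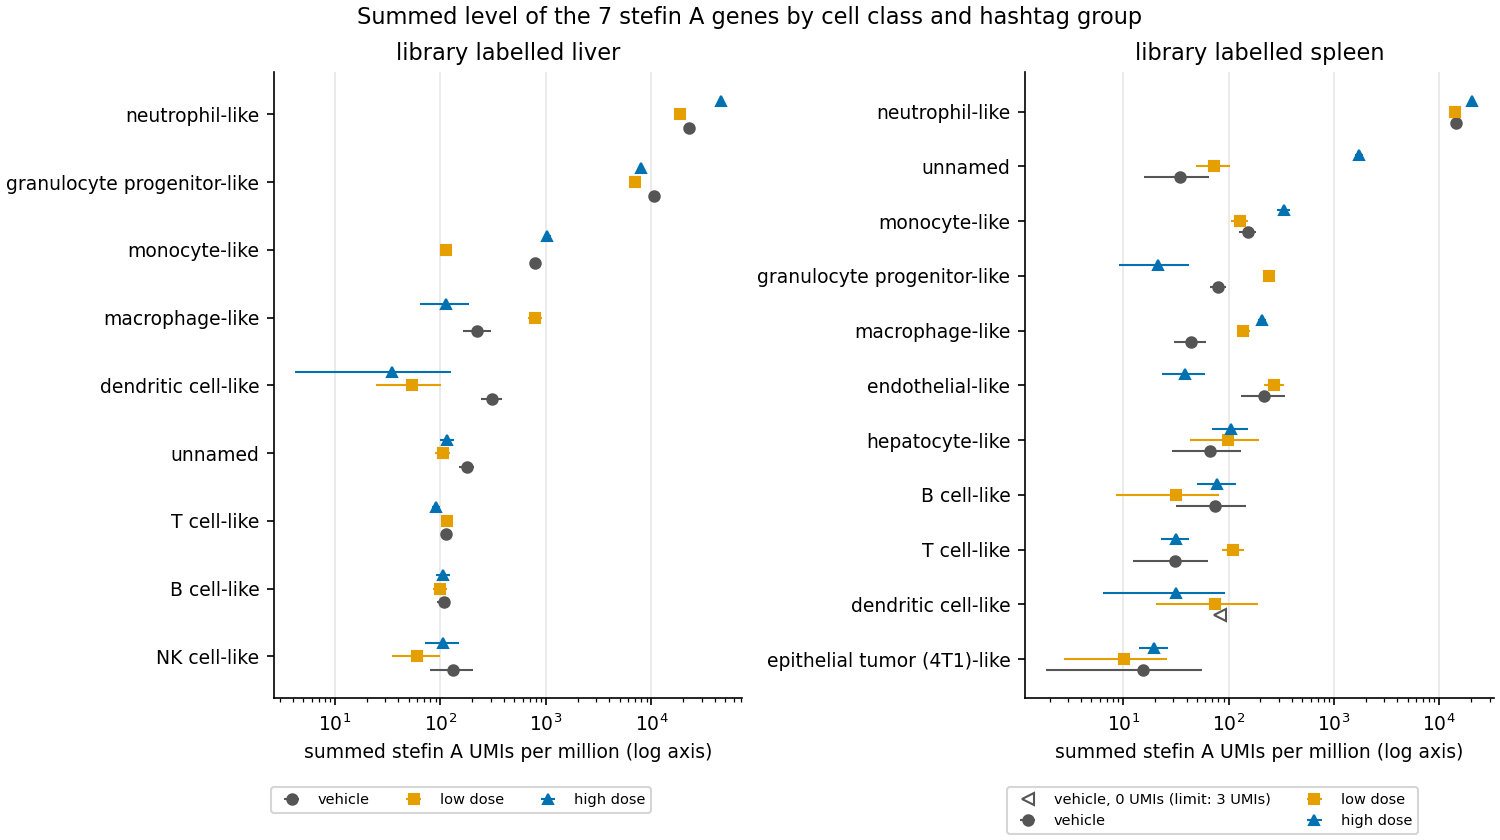
Summed CPM of the 7 stefin A genes (log axis) by cell class in the 2 libraries, with circles for the vehicle, squares for the low dose and triangles for the high dose, exact 95% Poisson intervals as lines, and an open triangle at the limit of 3 UMIs where a group had 0. Neutrophil-like cells lie between 13981 and 45574 CPM, and T cell-like cells, the background class, between 30.9 and 116 CPM.

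T cell-like cells are not known to make stefin A and were taken as the background class. Whether their stefin A UMIs came from free RNA was not tested. T cell-like cells held 104 CPM (98.6 to 110) in 2280 cells of the liver-labelled library and 54.2 CPM (44.9 to 64.7) in 317 cells of the spleen-labelled library. Neutrophil-like cells thus stood 7.86 and 8.19 higher on the log2 scale. Cstdc5 supplied 50.2% (47.3 to 53.0) of the stefin A UMIs of T cell-like cells and 46.6% of those of neutrophil-like cells in the liver-labelled library, and 39.7% (30.9 to 49.0) and 44.9% in the spleen-labelled library. Other members differed more, with Stfa2 at 9.47% (7.89 to 11.2) of the background and 15.1% in neutrophil-like cells of the first library, and Stfa2l1 at 21.5% (14.5 to 29.9) and 11.4% in the second, where 5 T cell-like cells held 47.9% of the 121 UMIs of the class. After each cell was thinned to 500 UMIs, 4.69% (3.86 to 5.64) of T cell-like cells and 78.1% (76.5 to 79.6) of neutrophil-like cells of the liver-labelled library kept a stefin A UMI at median depths before thinning of 4878 and 5262 UMIs. The shares were 1.89% (0.698 to 4.07) and 73.5% (70.8 to 76.0) in the spleen-labelled library, at median depths of 4542 and 5209.5 UMIs. B cell-like and NK cell-like cells of the liver-labelled library lay at the same level as T cells (104 and 93.4 CPM).

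Several levels above this background outside the granulocytes rested on few cells. Of 2698 stefin A UMIs in 160 monocyte-like vehicle cells of the liver-labelled library, 2228 came from 1 cell, and over all groups 5 cells held 84.8% of those of the class. In the spleen-labelled library 1 of 52 unnamed high dose cells held 577 of 660 UMIs, 1 of 80 progenitor-like low dose cells held 496 of 533, and 1 of 122 macrophage-like high dose cells held 292 of 478. In 26 monocyte-like high dose cells of the liver-labelled library 5 cells held 625 of 645. Whether such a barcode held more than 1 cell was not tested. The unnamed cells of the liver-labelled library were spread more evenly, with 19.6% of their stefin A UMIs in the 5 richest cells, and their clusters 11 (led by Ebf1, Cr2 and Siglecg) and 13 (led by mitochondrial genes), with median depths of 800 and 871 UMIs a cell, lay at 311 CPM (251 to 380) and 341 CPM (276 to 417). Among neutrophil-like cells the 5 richest cells held 3.19% and 5.23% of the stefin A UMIs of the 2 libraries.

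Within neutrophil-like cells the members ran from 15.7 to 11325 CPM in the liver-labelled library and from 9.21 to 7081 CPM in the spleen-labelled library, in the same order in both. Cstdc5 was the highest over all groups, followed by Cstdc4 (4480 and 3039 CPM), Stfa2 (3669 and 2428 CPM), Stfa2l1 (2626 and 1805 CPM) and Stfa3 (2052 and 1348 CPM). Cstdc6 (139 and 71.1 CPM) and Stfa1 were far lower, and neighbours in this order had separate counting intervals in each library. Cstdc5 alone supplied 46.6% and 44.9% of the stefin A UMIs of these cells. Stfa1, whose coding sequence is almost that of Cstdc5, supplied 0.0644% and 0.0584%.

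At the high dose the neutrophil-like cells that remained were richer in stefin A transcripts than those of the vehicle in both libraries. Which library had the larger ratio depended on whether progenitor-like cells were counted with them, as given below. The summed level in the vehicle, low dose and high dose groups was 22528, 18617 and 45574 CPM in 1404, 1265 and 197 neutrophil-like cells of the liver-labelled library, a log2 ratio of 1.02 (1.01 to 1.03) at the high dose. For the 362, 623 and 155 neutrophil-like cells of the spleen-labelled library the levels were 14524, 13981 and 20457 CPM, a log2 ratio of 0.49 (0.48 to 0.51). The high dose was thus the highest of the groups in both libraries, while the low dose lay under the vehicle. Expressed per cell, the mean was 177, 153 and 856 stefin A UMIs in the liver-labelled library and 119, 88.5 and 306 in the spleen-labelled library. These means also carry the depth of the cells, whose median was 4220.5, 5541 and 17696 UMIs and 4921, 4276 and 14147 UMIs in the same order, so the depth of neutrophil-like cells moved with the high dose. Among neutrophil-like cells with at least 10000 UMIs the log2 ratio was 0.77 (169 high dose and 353 vehicle cells) and 0.56 (109 and 115 cells).

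**Figure D2:**
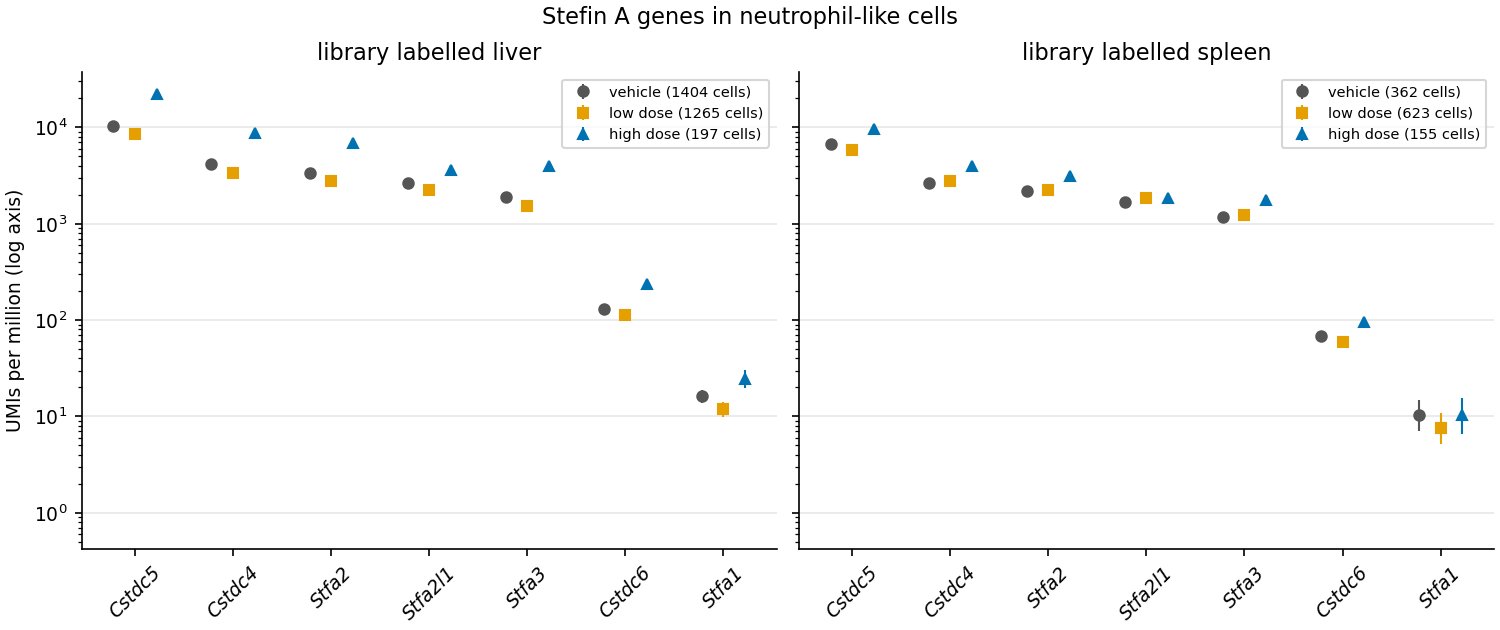
CPM (log axis) of each stefin A gene in neutrophil-like cells of the vehicle (circles), low dose (squares) and high dose (triangles) groups of each library, with exact 95% Poisson intervals. Cstdc5 is the highest member in all 6 groups, from 5791 to 22115 CPM, and Stfa1 the lowest, from 7.61 to 24.6 CPM.

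Cstdc5 was measured at 10310, 8558 and 22115 CPM in the vehicle, low dose and high dose cells of the liver-labelled library and at 6770, 5791 and 9674 CPM in those of the spleen-labelled library. The high dose values were above the other groups in both, by log2 ratios to the vehicle of 1.10 (1.09 to 1.11) and 0.52 (0.49 to 0.54). Cstdc4 was measured at 4135, 3362 and 8647 CPM and at 2620, 2802 and 3979 CPM, with log2 ratios of 1.06 (1.04 to 1.08) and 0.60 (0.56 to 0.65) at the high dose. Stfa2 was measured at 3386, 2808 and 6929 CPM and at 2182, 2221 and 3097 CPM, with log2 ratios of 1.03 (1.01 to 1.06) and 0.51 (0.46 to 0.55). These 3 genes therefore moved by nearly the same ratio within a library.

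Stfa3 was measured at 1889, 1524 and 4014 CPM in the liver-labelled library and at 1172, 1237 and 1762 CPM in the spleen-labelled library, which gave log2 ratios of 1.09 (1.06 to 1.12) and 0.59 (0.52 to 0.65) at the high dose. Cstdc6 was measured at 131, 114 and 235 CPM and at 68.0, 59.1 and 95.4 CPM, with log2 ratios of 0.85 (0.72 to 0.97) and 0.49 (0.21 to 0.77). Both had their highest level at the high dose in each library.

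Stfa2l1 and Stfa1 departed from this pattern. Stfa2l1, whose coding sequence is almost that of Stfa2, was measured at 2660, 2239 and 3608 CPM in the liver-labelled library and at 1702, 1863 and 1839 CPM in the spleen-labelled library. Its log2 ratios at the high dose were 0.44 (0.41 to 0.47) and 0.11 (0.053 to 0.17), and in the spleen-labelled library the low dose lay above the high dose. Stfa1 rested on few UMIs, with 179, 123 and 91 in the liver-labelled library (16.2, 11.9 and 24.6 CPM) and 31, 30 and 24 in the spleen-labelled library (10.4, 7.61 and 10.4 CPM), and its log2 ratios of 0.60 (0.22 to 0.97) and -0.010 (-0.84 to 0.81) leave a wide range.

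At the high dose 4 of the 7 members (Stfa2, Stfa3, Cstdc4 and Cstdc5) were at least 2-fold above the vehicle in the liver-labelled library, where 0.536% of 7271 genes with at least 50 UMIs were, and 0 of 7 were in the spleen-labelled library, where 1.13% of 5385 genes were. By the size of the ratio the members ranked 33, 35, 36, 38, 71, 175 and 331 among the 7271 genes of the liver-labelled library and 302, 323, 425, 438, 460, 2022 and 2897.5 (a tie) among the 5385 of the spleen-labelled library. The median log2 ratio over all genes was -0.37 and 0.017. Since this contrast chose the genes, nothing is read from these counts. With granulocyte progenitor-like cells added to the class, the log2 ratio of the sum was 0.47 in the liver-labelled library and 0.91 in the spleen-labelled library, so its size and the order of the libraries rest on where the class ends.

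**Figure D3:**
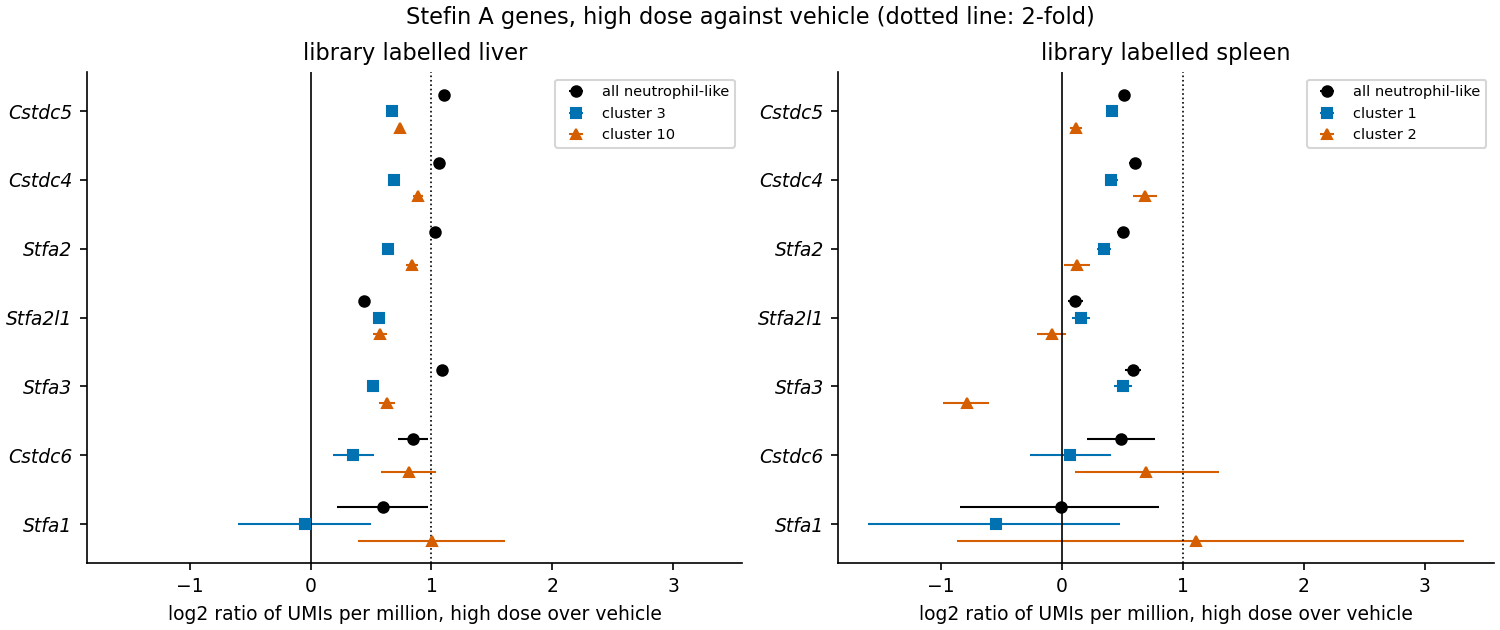
Log2 ratio of CPM, high dose over vehicle, for each stefin A gene in all neutrophil-like cells and within the 2 neutrophil-like clusters of each library that held at least 20 cells in both groups, with exact 95% intervals and a dotted line at 2-fold. In the liver-labelled library 4 members lie right of the 2-fold line over all neutrophil-like cells, and within clusters 3 and 10 the summed ratios are 0.64 and 0.76; in the spleen-labelled library no member reaches the line over all cells.

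At the low dose no member reached 2-fold in either direction: 0 of 7 were at least 2-fold higher, against 0.162% of 8003 genes in the liver-labelled library and 1.17% of 5987 in the spleen-labelled library, and 0 of 7 at least 2-fold lower, against 1.37% and 1.47%. All 7 log2 ratios were below 0 in the liver-labelled library, from -0.45 (Stfa1) to -0.20 (Cstdc6), where the median over all genes was -0.12. In the spleen-labelled library 4 were above 0 and 3 below, with the largest at 0.13 for Stfa2l1 and the smallest at -0.46 for Stfa1, around a median over all genes of -0.072. The sum was at -0.28 (-0.28 to -0.27) and -0.055 (-0.073 to -0.037). The low dose and the high dose share the vehicle cells, so their ratios are not independent.

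The stefin A share of single cells spread widely in every group. In the liver-labelled library the median neutrophil-like cell gave 0.738%, 0.733% and 3.74% of its UMIs to the 7 genes in the vehicle, low dose and high dose groups, with maxima of 13.2%, 13.3% and 12.9%. The medians of the spleen-labelled library were 0.570%, 0.566% and 1.66% and the maxima 11.6%, 11.2% and 11.9%. The maxima were thus alike at all doses, while the median was higher at the high dose. So was the 90th percentile, at 4.50%, 4.40% and 9.50% in the liver-labelled library. In the spleen-labelled library it was 4.50%, 3.88% and 6.59%. Cells with more than 3% of their UMIs from the family were 18.7%, 17.0% and 57.4% of the neutrophil-like cells of the liver-labelled library and 17.4%, 14.8% and 30.3% of those of the spleen-labelled library.

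**Figure D4:**
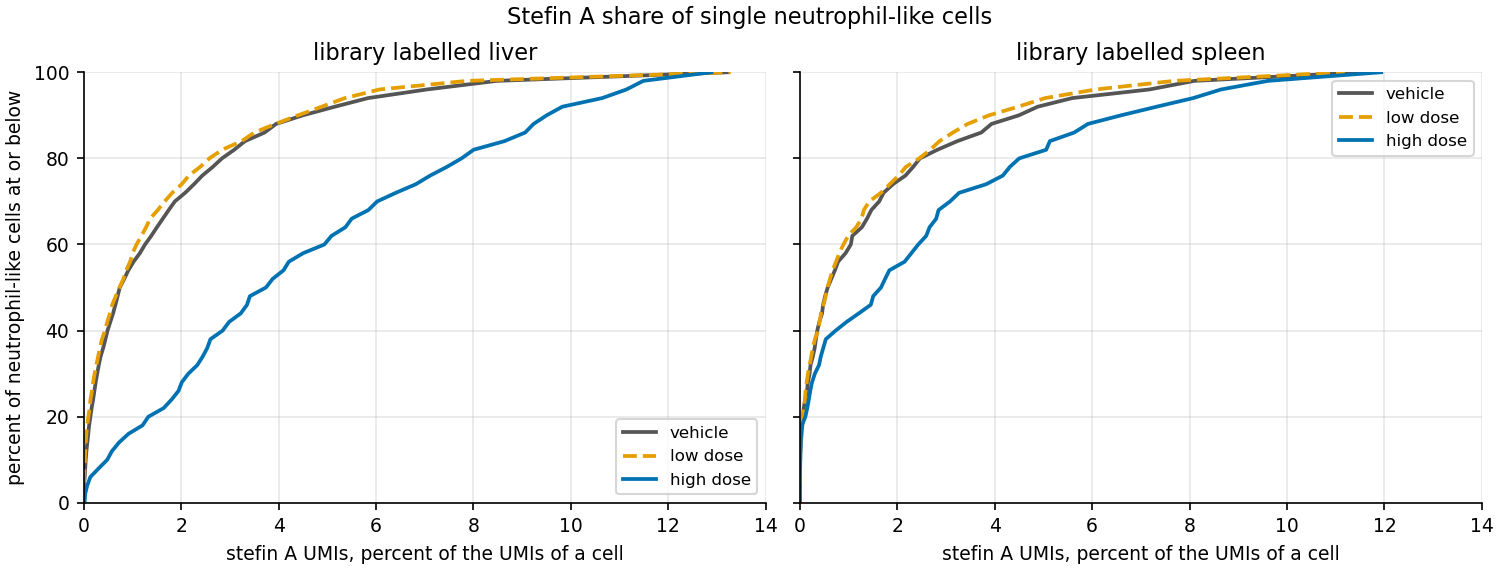
Percent of neutrophil-like cells (vertical axis) whose stefin A UMIs make up at most a given percent of their UMIs (horizontal axis), with 1 line for each group of each library. The vehicle and low dose lines run together, with medians of 0.738% and 0.733% in the liver-labelled library, while the high dose line lies to their right, with medians of 3.74% and 1.66% in the 2 libraries.

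At an equal depth of 500 UMIs a cell, at least 1 stefin A UMI was found in 78.8% (76.5 to 80.9), 74.9% and 93.9% (89.6 to 96.8) of the neutrophil-like cells of the liver-labelled library, and without thinning in 94.9%, 93.8% and 100%. The thinned shares were 73.8% (68.9 to 78.2), 72.7% and 76.1% (68.6 to 82.6) in the spleen-labelled library, and 90.6%, 89.6% and 92.9% without thinning. These shares are of cells of 1 pooled sample a group and were not tested, and their intervals cover counting error only. The values of the high dose and the vehicle lay farther apart in the liver-labelled library. Single members were found less often. Cstdc5 was detected in 60.0%, 58.0% and 92.4% of thinned cells of the liver-labelled library, Stfa3 in 25.9%, 24.6% and 64.5%, and Stfa2l1 in 53.6%, 48.3% and 60.9%. In vehicle cells Stfa2l1 was thus found in more cells than Cstdc4 (44.9%) and Stfa2 (40.1%), although both had more UMIs.

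Members were found together in the same cells. The median thinned cell held UMIs of 2, 2 and 4 of the 7 genes in the vehicle, low dose and high dose groups of the liver-labelled library and of 2, 2 and 3 in the spleen-labelled library. At least 5 members were found in 15.4%, 14.5% and 41.1% and in 14.9%, 13.6% and 26.5% of the cells. Across thinned cells the median Spearman rho over pairs was 0.46 and 0.48 in the vehicle and low dose groups of the liver-labelled library (15 pairs, 1404 and 1265 cells) and 0.58 at the high dose (10 pairs, 197 cells). It was 0.54, 0.54 and 0.67 in the spleen-labelled library (10 pairs each, 362, 623 and 155 cells). These values are across cells of 1 library, which are not independent replicates, and pairs with Stfa1, and in the smaller groups with Cstdc6, had too few UMIs. The 15 pairs include those with Cstdc6, which had the lowest rho, and the 10 pairs do not. Medians over 15 pairs and over 10 pairs are therefore not of the same pairs.

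Stfa2 and Cstdc5 were the pair with the highest rho in each of the 6 groups, from 0.65 to 0.76, although they are only 75.3% identical in their coding parts. Stfa2 and Stfa2l1, which are 96.5% identical, had 0.44, 0.48 and 0.56 in the liver-labelled library. Stfa2l1 and Stfa3 had the lowest rho among the 5 abundant members in the vehicle and low dose groups of both libraries (0.32 to 0.43). Likeness of sequence and co-detection thus did not rank the pairs alike. Pairs with Cstdc6 lay at 0.15 to 0.22 in the vehicle group of the liver-labelled library, where 3.92% of thinned cells held a Cstdc6 UMI.

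The level of the family and its make-up changed along the granulocyte clusters. In the liver-labelled library the summed level over all groups was 12033 CPM in progenitor-like cluster 9, led by Elane and Prtn3 of the primary granules, by Fcnb and by cell cycle genes. It was 22663 CPM in neutrophil-like cluster 10 (Ltf, Camp and Ngp of the secondary granules) and highest, at 33164 CPM, in cluster 3 (Ggt1, Prok2, Ly6g and Mmp8). Clusters 8 (Retnlg, Wfdc17) and 7 (Saa3, Wfdc17, Retnlg) had 22090 and 20669 CPM. The lowest were clusters 5 (Il1b, Igfbp6, Csf1) with 11332 CPM and 4 (Saa3, Il1b, Ccrl2) with 7413 CPM, and cluster 4 rested on 3 of 14 neutrophil markers. Progenitor-like cluster 19, led by Car1, Myb, Cd34 and Mpo, had 145 CPM, near the background of T cells. The family was thus low where Myb and Mpo led, highest in the cluster led by Ggt1 and Ly6g, and lower again where Il1b led. Mmp8 itself was higher in clusters 7 and 8 (1588 and 1584 CPM) than in cluster 3 (1351 CPM).

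The spleen-labelled library also had its highest level in a cluster led by Prok2, Ggt1 and Ly6g, but its lowest neutrophil-like cluster was the one led by granule genes. Cluster 2, led by Camp, Ngp and Ltf but also by Cebpe, Fcnb, Hmgn2 and the cell cycle gene Cdkn3, had 8286 CPM. Cluster 1 (Prok2, Ggt1, Ly6g) had the highest level, 29083 CPM. Cluster 10 (Bcl2l15, Orm1, Saa1), of whose 139 cells 138 were low dose cells, had 17856 CPM, cluster 0 (Il1b, Igfbp6, Ccrl2) had 12919 CPM and cluster 16 (Cxcl3, Hilpda) had 10365 CPM. Progenitor-like cluster 9 (Ctsg, Mpo, Myb) had 159 CPM. Cells led by Cebpe, Fcnb and Camp were thus called progenitor-like in the liver-labelled library (cluster 9) and neutrophil-like in the spleen-labelled library (cluster 2).

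The shares of Cstdc5 and Stfa2l1 differed between clusters. In the order 9, 10, 3, 8, 7, 5 and 4 of the liver-labelled library, Cstdc5 supplied 57.5%, 52.9%, 48.1%, 39.6%, 36.3%, 31.6% and 28.6% of the stefin A UMIs, and Stfa2l1 supplied 10.9%, 9.10%, 8.14%, 13%, 16.3%, 28.3% and 34.7%. This is the order of the share of Cstdc5 itself, so its fall is no finding, and the share of Stfa2l1 was highest in clusters 5 and 4, both with Il1b among their leading genes. In the order 2, 1, 10, 0 and 16 of the spleen-labelled library the shares were 54.6%, 44.1%, 34.7%, 33.2% and 28.7% for Cstdc5 and 11%, 9.43%, 14.8%, 20.4% and 21.2% for Stfa2l1. Both shares were lower in cluster 3 than in clusters 9 and 10 of the first library and in cluster 1 than in cluster 2 of the second, and from there on the share of Stfa2l1 was higher where that of Cstdc5 was lower. By level, Stfa2l1 stayed between 2063 and 3372 CPM over the 6 neutrophil-like clusters of the liver-labelled library, while Cstdc5 ran from 2124 to 15947 CPM and Stfa3 from 283 to 3281 CPM.

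**Figure D5:**
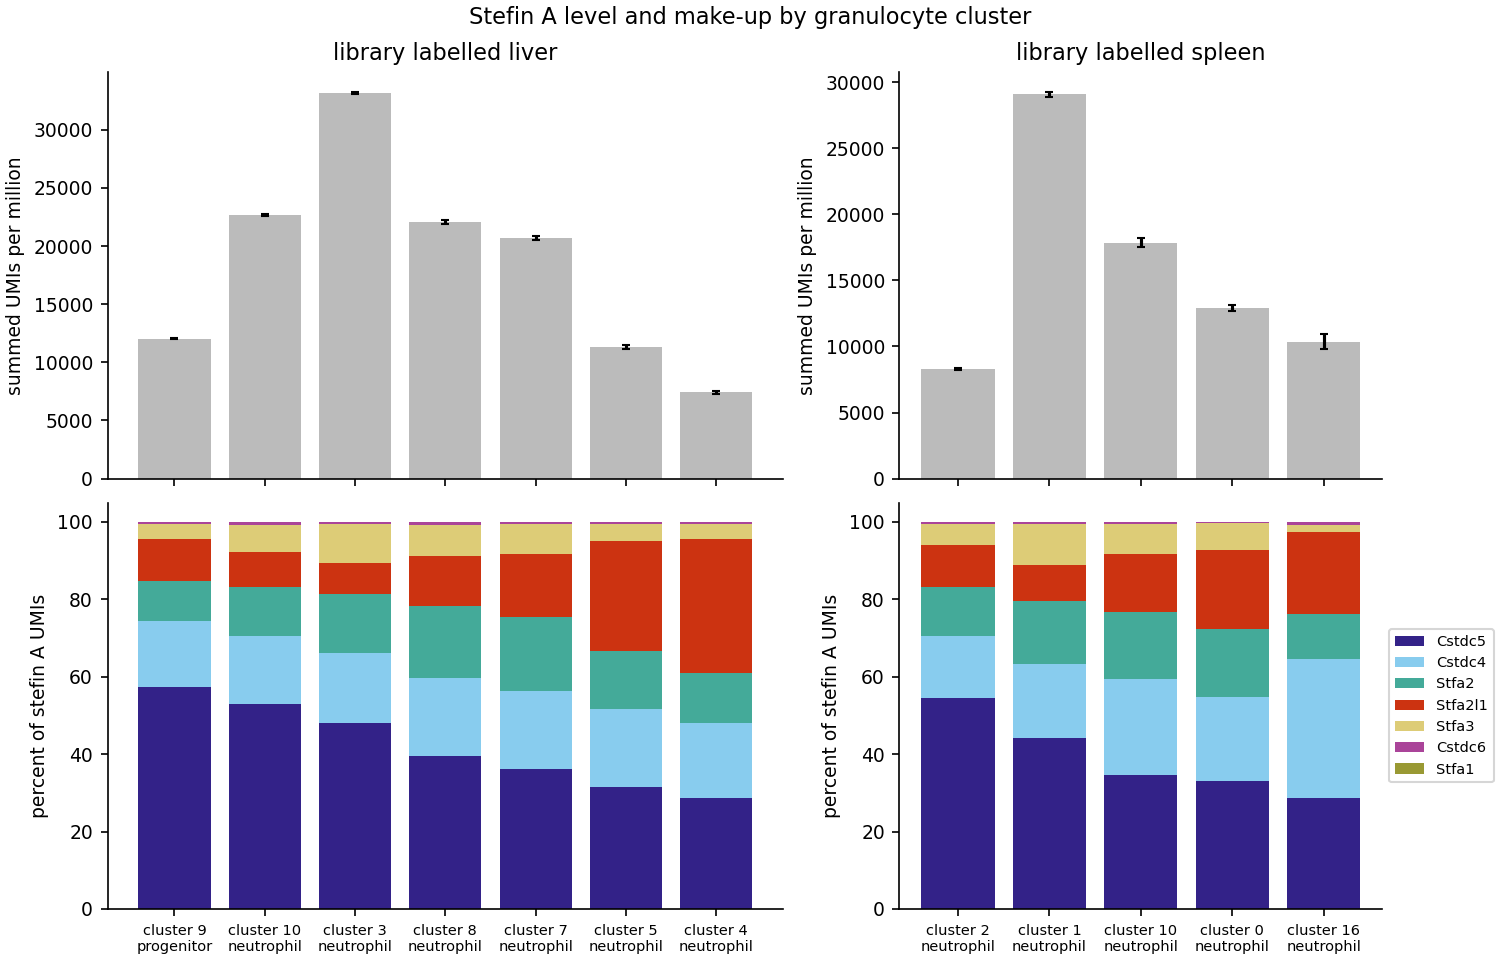
Summed stefin A CPM of granulocyte clusters over all groups (upper panels, bars from 0 with exact 95% Poisson intervals) and the percent of those UMIs from each member (lower panels, stacked to 100%), with clusters ordered by the share of Cstdc5. Progenitor-like clusters 19 of the liver-labelled library (145 CPM) and 9 of the spleen-labelled library (159 CPM) are not drawn. The level peaks at 33164 CPM in cluster 3 of the liver-labelled library and 29083 CPM in cluster 1 of the spleen-labelled library, while the share of Stfa2l1 widens from 8.14% to 34.7% between clusters 3 and 4 of the liver-labelled library.

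The groups drew on different clusters. Cluster 3 held 14.1% of the vehicle, 20.9% of the low dose and 69.5% of the high dose neutrophil-like cells of the liver-labelled library. Clusters 4 and 5, both with Il1b among their leading genes, had 377 and 253 vehicle cells, 188 and 299 low dose cells, and 0 and 1 high dose cells. Cluster 1 held 28.7%, 20.9% and 52.3% of those of the spleen-labelled library, cluster 2 held 26.2%, 16.2% and 41.9%, and cluster 0, led by Il1b, had 140, 231 and 5 of the cells. At the high dose the cluster with the most stefin A held the largest share of the cells in each library, and in the spleen-labelled library the cluster with the least, cluster 2, also held a larger share than in the vehicle. The make-up of the family differed between the groups as well, with Stfa2l1 at 11.8%, 12.0% and 7.92% of the family UMIs in the liver-labelled library and 11.7%, 13.3% and 8.99% in the spleen-labelled library.

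Within neutrophil-like clusters the high dose ratios of the summed level were smaller than over the class, which did not hold for every member. In cluster 3 of the liver-labelled library the summed level was 32347, 22190 and 50519 CPM in the vehicle, low dose and high dose cells, a log2 ratio at the high dose of 0.64 (0.63 to 0.66), and in cluster 10 it was 22223, 17632 and 37626 CPM with a log2 ratio of 0.76 (0.74 to 0.78). In cluster 1 of the spleen-labelled library it was 28799.5, 20976 and 37609 CPM with a log2 ratio of 0.39 (0.36 to 0.41), and in cluster 2 it was 7411, 9244 and 8205 CPM with a log2 ratio of 0.15 (0.11 to 0.18). The sum was above the vehicle at the high dose in these 4 neutrophil-like clusters, and in each it was below the 2-fold line. How far the ratio over all neutrophil-like cells is set by the clusters that hold the cells was not tested.

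Members differed within clusters too. In cluster 3 of the liver-labelled library Stfa2l1 had a log2 ratio of 0.57 (0.52 to 0.61), inside the range of 0.35 to 0.69 of the other members with over 500 UMIs, whereas over all neutrophil-like cells it had the smallest ratio. In cluster 2 of the spleen-labelled library Stfa3 was lower at the high dose (437 CPM in the vehicle and 253 CPM, log2 ratio -0.79, -0.98 to -0.60) and Cstdc4 higher (913 and 1468 CPM, 0.69, 0.59 to 0.78). At the low dose the sum was lower in clusters 3 and 10 of the liver-labelled library (-0.54 and -0.33) and in cluster 1 of the spleen-labelled library (-0.46), but higher in its cluster 2 (0.32, 0.28 to 0.35), where Cstdc4 had 0.83 and Cstdc5 0.053. In clusters 7 and 8 of the liver-labelled library and 0 and 16 of the spleen-labelled library it lay between -0.064 and -0.0038.

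None of the other cystatins with at least 50 UMIs was past 2-fold at the high dose. Of 15 other cystatins, 3 and 4 had at least 50 UMIs over the high dose and vehicle cells of the 2 libraries, and 0 were 2-fold changed in either direction, with a median log2 ratio of -0.58 in the liver-labelled library and -0.35 in the spleen-labelled library. Over all genes the medians were -0.37 and 0.017, with 0.536% and 1.13% at least 2-fold higher and 15.1% and 2.10% at least 2-fold lower. Cstb, the stefin of most tissues, had log2 ratios of 0.10 and 0.24. The secreted cystatin Cst3 had -0.72 and -0.26. Csta2, which lies within the cluster, had fewer than 50 UMIs and was not counted. It had 16 high dose and 8 vehicle UMIs in the liver-labelled library, a log2 ratio of 2.58 (1.27 to 4.01). In the spleen-labelled library it had 0 and 5 UMIs. Csta3, which lies within the cluster and also holds ACCTTTAAAACCC in its promoter, was measured at 33.1 CPM in the vehicle and 22.2 CPM at the high dose of the liver-labelled library and at 21.2 and 12.9 CPM in the spleen-labelled library, with log2 ratios of -0.58 (-0.94 to -0.23) and -0.71 (-1.39 to -0.062).

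Cysteine cathepsins are the proteases that stefins bind, and none with at least 50 UMIs was 2-fold higher at the high dose. Of 11 genes for these enzymes and legumain, 8 were counted in the liver-labelled library, where 0 were at least 2-fold higher and 2 at least 2-fold lower (Ctss, -1.14, and Lgmn, -1.26 on 8 high dose UMIs) beside 15.1% of all genes, with a median of -0.55. Of 7 counted in the spleen-labelled library 0 were 2-fold changed, beside 1.13% and 2.10% of genes at least 2-fold higher and lower, with a median of 0.24. Legumain lay on opposite sides of the vehicle, with a log2 ratio of 0.85 (0.36 to 1.35) on 86 high dose and 61 vehicle UMIs in the spleen-labelled library. Ctsc, which activates the serine proteases of the granules, was the highest in the first library at 0.58 (0.36 to 0.80) and had 0.52 (0.21 to 0.84) in the second. Ctsb had -0.48 and 0.38 (0.19 to 0.56), also on opposite sides of 0. At the low dose 0 of 8 and 1 of 7 passed 2-fold, the latter Lgmn at -1.25, where 1.37% and 1.47% of all genes were at least 2-fold lower.

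Most granule genes lay within 2-fold of the vehicle, while most inflammatory genes were lower. The shares of all genes past 2-fold at the high dose were those given above for the cystatins. Of 8 secondary granule genes 0 were 2-fold higher and 1 was 2-fold lower at the high dose in the liver-labelled library (Fcnb, -1.19), and 0 in either direction in the spleen-labelled library, with medians of 0.049 and 0.16. Ltf had -0.0041 and 0.22, Camp -0.71 (-0.74 to -0.68) and -0.26, and Chil3 0.70 (0.63 to 0.77) and 0.21. Of 8 tertiary granule and mature neutrophil genes 0 passed 2-fold in either library, with medians of -0.29 and -0.18. Ly6g had 0.47 and 0.38, Retnlg -0.62 and -0.93, and Csf3r, the receptor of the granulocyte growth factor, -0.86 and -0.47. Primary granule genes, of which 2 and 5 were counted, also gave 0 past 2-fold (medians -0.075 and -0.45). Of 9 inflammatory genes counted, 7 were at least 2-fold lower in each library, beside 15.1% and 2.10% of all genes, and 0 at least 2-fold higher, with medians of -2.18 and -1.79. This list was chosen with earlier results of these data known. Il1b, Ccrl2 and Csf1 were among the leading genes of cluster 4 of the liver-labelled library, which held 0 high dose cells. The count therefore describes the list and carries no test. Il1b, the cytokine gene that led clusters 4 and 5, was measured at 733 CPM in the vehicle and 161 CPM at the high dose and at 1198 and 299.6 CPM, and Ccrl2, a chemerin-binding receptor, had -4.81 and -2.88. Within clusters Il1b went both ways. In cluster 3 of the liver-labelled library Il1b had 79.9 CPM in the vehicle and 174 CPM at the high dose. In cluster 1 of the spleen-labelled library it had 393 and 543 CPM. In cluster 10 of the first library it had 26.2 and 12.3 CPM, and in cluster 2 of the second 57.2 and 15.7 CPM. Ptgs2 had 0 UMIs in the high dose cells of the liver-labelled library. Tnf lay above the vehicle, with 0.71 (0.24 to 1.18) and 0.091 (-0.52 to 0.69), and Nfkbia below it, with -0.76 and -0.85. At the low dose Il1b was higher in both libraries (0.78 and 1.13), 0 and 2 of the 9 genes were at least 2-fold higher, beside 0.162% and 1.17% of all genes, and 3 and 0 at least 2-fold lower, beside 1.37% and 1.47%.

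Genes outside the family with the most similar pattern were found by Pearson correlation of log2(CPM + 10) with the summed members over combinations of neutrophil-like cluster and group. Over 14 combinations and 5424 genes of the liver-labelled library the 5 most alike were Rab5if (0.94), Rplp0 (0.93), Mapk6 (0.93), Ggt1 (0.93) and Lrrk2 (0.92). Over 11 combinations and 3268 genes of the spleen-labelled library they were Atxn10 (0.94), S100a6 (0.93), Ggt1 (0.92), Pygl (0.92) and Hopx (0.89). Ggt1, a gamma-glutamyltransferase of the cell surface, was on both lists, and it also led clusters 3 and 1. The correlation does not weigh the size of a change. Over the combinations Rab5if ran only from 199 to 304 CPM and Atxn10 from 171 to 365 CPM. Ggt1 ran from 6.14 to 367 CPM and from 16.2 to 341 CPM in the 2 libraries. The members themselves had 0.86 to 0.99 in the liver-labelled library except Stfa2l1, which had 0.20, and 0.73 to 0.98 in the spleen-labelled library, with Stfa1 too sparse for a value. Each member is part of the sum it was set against, which raises the values of the abundant members in advance. They are therefore not comparable with those of the outside genes. These correlations describe points that share a library and cluster.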

How the data were processed

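The deposited matrices held raw UMI counts per gene and barcode, which the authors made with Cell Ranger (5.0.0 in the matrix header, 6.0.0 in the submitters' processing notes) on mm10. Hashtags were called with Seurat 5.3.0 (HTODemux, quantile 0.99) in R 4.3.3. Cells with 1 hashtag were normalised with sctransform 0.4.2. The 7 genes and the family genes beside them were taken out of the variable features, and cells were clustered on 30 components at resolution 0.8. A filter on genes and mitochondrial UMIs was applied only as an alternative. Barcodes with more than 1 hashtag were left out. A cluster was named where at least 3 markers had a log2 fold of at least 1 in at least 20% of its cells and its 10 leading genes did not go against the name. Counts were then summed per class, cluster and group in Python 3.11.15, with intervals from scipy 1.17.1 (Poisson for levels, binomial for shares and for ratios). Each library holds 1 pooled sample a group, so no test was run and depth sets the precision: 500 UMIs or more a barcode and 79585807 and 35672251 in all. PCR copies are removed by UMIs, and the intervals cover counting error only. A ratio was called at 2-fold among genes with at least 50 UMIs. Clusters were compared between groups with at least 20 cells in both, and genes alike in pattern were the 5 with the highest correlation among those with at least 200 UMIs. Where a group had 0 UMIs, the level that 3 UMIs would give is shown as its upper limit. Shares and correlations across cells used cells thinned to 500 UMIs. Sequences came from RefSeq promoters and from GENCODE M21 coding parts on GRCm38, read with Biopython 1.88. Protein sequences were not used here. The members and the gene lists were chosen with earlier results of these data known. Alternatives changed the hashtag caller, the cell filter, the resolution, the variable features, the doublet calls (scanpy 1.11.5), the scale, the class and the depth.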

Additional observations from a re-analysis of the deposited data

Results flagged for a closer look

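Stfa2l1, Stfa3 and Cstdc4 lay on opposite sides of the vehicle at the low dose in the 2 libraries. The log2 ratio in neutrophil-like cells was -0.25 in the liver-labelled and 0.13 in the spleen-labelled library for Stfa2l1, -0.31 and 0.077 for Stfa3, and -0.30 and 0.097 for Cstdc4. The difference between the libraries was not tested, since each holds 1 pooled sample a group.

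Barcodes without a single hashtag call, which the report's comparisons leave out although the other hashtag callers assign some of them, also held stefin A UMIs. Of those with no hashtag in the spleen-labelled library, 49 gave at least 5% of their UMIs to the neutrophil genes S100a8 and S100a9, and their summed stefin A level was 35079 CPM (34489 to 35676), against 13199 CPM in 339 vehicle barcodes chosen in the same way. Barcodes with more than 1 hashtag in that library had 15600 CPM (121 barcodes) under the same rule and 9416 CPM without it (215 barcodes), against 6099 CPM in all vehicle cells. In the liver-labelled library the same rule gave 17844 CPM in 81 barcodes with no hashtag, 15514 CPM in 313 with more than 1, and 20049 CPM in 1396 vehicle barcodes, so neither set exceeded the vehicle there.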

How the results depend on the processing

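The order of high dose and vehicle in the summed level of neutrophil-like cells held under every alternative, while the size of the ratio moved. In the liver-labelled library the log2 ratio of 1.02 became 1.04 with hashtags called by MULTIseqDemux, 1.05 by the dominant hashtag, 0.97 with a filter on genes and mitochondrial UMIs, 0.97 with the members kept among the variable features, 0.77 with cells chosen by S100a8 and S100a9, 1.42 as a mean over cells, 1.15 without the 20 most abundant genes, 0.64 and 0.76 within clusters 3 and 10, 0.47 with progenitor-like cells, 0.77 in cells with at least 10000 UMIs and 1.10 without the cluster led by granule genes. In the spleen-labelled library 0.49 became 0.88 with MULTIseqDemux, 0.66 with the dominant hashtag, 0.42 with the filter, 0.53 at resolution 1.6, 0.71 as a mean over cells, 0.39 and 0.15 within clusters 1 and 2, 0.91 with progenitor-like cells, 0.56 in cells with at least 10000 UMIs and 0.67 without the granule-led cluster. The last 3 choices and the one without the 5 richest cells were made after seeing the data.

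The low dose ratio stayed below 0 in the liver-labelled library: -0.28 became -0.23 with the dominant hashtag, -0.29 with the members kept, -0.29 without Scrublet calls, -0.32 with cells chosen by S100a8 and S100a9, -0.12 as a mean over cells, -0.19 without the 20 most abundant genes, -0.54, -0.14, -0.30, -0.026, -0.0038 and -0.33 within clusters 3, 4, 5, 7, 8 and 10, -0.31 with progenitor-like cells, -0.34 in cells with at least 10000 UMIs and -0.26 without the granule-led cluster. In the spleen-labelled library its sign depended on the setting: -0.055 became 0.25 with MULTIseqDemux, 0.024 with cells chosen by S100a8 and S100a9, 0.0027 without the 20 most abundant genes and 0.32 within cluster 2, but -0.096 with the dominant hashtag, -0.32 at resolution 1.6, -0.14 as a mean over cells, -0.46 and -0.012 within clusters 1 and 16, -0.18 in cells with at least 10000 UMIs and -0.44 without the granule-led cluster. The cause was not tested.

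The share of liver-labelled neutrophil-like cells with a stefin A UMI was 15.1 percentage points higher at the high dose, 8.71 with cells chosen by S100a8 and S100a9 and 5.06 without thinning. In the spleen-labelled library this difference ran from -1.48 to 8.09 percentage points over the settings, so its sign depended on the setting. At 1000 UMIs a cell the median correlation between members was 0.53, 0.53 and 0.62 in the vehicle, low dose and high dose groups of the liver-labelled library. These medians are over 15, 15 and 10 pairs, of which only the 15 include pairs with Cstdc6. The medians were 0.61, 0.57 and 0.72 in the spleen-labelled library, over 10 pairs each. The log2 ratio of neutrophil-like over T cell-like cells was 8.04 without the 5 richest cells in the liver-labelled library, and 6.14 with the dominant hashtag and 9.24 without those cells in the spleen-labelled library. The highest cluster stood 2.16 and 1.81 (log2) above the lowest, and 2.23 and 2.39 at resolution 1.6. Single members changed sign in 2 of 105 and 8 of 105 values at the high dose and in 5 of 133 and 31 of 118 at the low dose. Scrublet called 2.59% of the barcodes of the liver-labelled library and 0.0207% of the other, where it did not work. No paired analysis was possible because each group is 1 pooled sample in a library and no test was run. Without replicates none could be left out, and depth limits Stfa1 and Cstdc6 most.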

Other observations

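In granulocyte progenitor-like cluster 9 of the liver-labelled library, led by Elane and Prtn3, the summed stefin A level was 13124 CPM in 144 vehicle cells, 8848 CPM in 129 low dose cells and 15527 CPM in 55 high dose cells, with log2 ratios to the vehicle of -0.57 (-0.59 to -0.55) and 0.24 (0.22 to 0.26). Stfa2l1 supplied 10.9%, 13.2% and 8.35% of it. The high dose level rested on few cells. Of the 33384 stefin A UMIs of the progenitor-like class at the high dose, 5 cells held 14890 (44.6%) and 1 cell 5867. Only 499 of the 33384 came from cluster 19. In the vehicle 5 cells held 23.9% of those of the class, and at the low dose 26.5%. Whether the high dose ratio of cluster 9 holds without these cells was not tested. In cluster 19, led by Car1, Myb and Cd34, the level was 51.3, 63.0 and 238 CPM, a log2 ratio of 2.22 (1.82 to 2.63) at the high dose on 499 UMIs in 57 cells against 59 UMIs in 31 vehicle cells, and the vehicle and low dose values lay under the T cell-like background. Over the progenitor-like class the level was 10509, 6987 and 7927 CPM in the same order. Cluster 19 held 17.7%, 17.3% and 50.9% of the class in the 3 groups.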
